A study of Mus musculus with 15 samples.

Results

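The genes that mark fast-twitch skeletal muscle fibres were followed through femoral RNA of mice kept on the ground or flown in space, with and without a bone defect. The 10 genes, of 21154 genes named on the array, were Myh1, Myh2, Myh4, Tnni2, Tnnt3, Tnnc2, Mylpf, Actn3, Atp2a1 and Pvalb, and 13 probes mapped to them through the accession that the array gives for each probe. All mice were male C57BL/6J, 9 weeks old by the labels. The methods give this as about the age at surgery, and the tissue was taken about a month later. The 4 groups were ground mice left unoperated (G-Sham, 4 arrays), flight mice left unoperated (FLT-Sham, 4 arrays), ground mice with a segmental bone defect (G-Surgery, 4 arrays) and flight mice with the same defect (FLT-Surgery, 3 arrays), with 1 array per mouse. Surgery removed a segment of the femoral shaft, which was bridged with a scaffold on a pin and given a collagen sponge with saline. Flight mice spent about a month on the International Space Station. The tissue is labelled callus in every sample, also in the shams, where the matching stretch of the midshaft was taken. For the frozen pieces milled for RNA, the methods used here do not state whether adhering muscle was trimmed away.

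A skeletal muscle fibre contracts when calcium released into the fibre binds troponin on the thin filament and frees actin for the heads of myosin. Fast and slow fibres build this machine from different genes. In fast fibres Myh2, Myh1 and Myh4 encode the myosin heavy chains of type 2A, 2X and 2B fibres, which shorten with rising speed and fatigue with rising ease, in that order. Tnni2, Tnnt3 and Tnnc2 encode the inhibitory, tropomyosin-binding and calcium-binding troponin subunits, and Mylpf encodes a regulatory light chain. Actn3 encodes the alpha-actinin that anchors thin filaments in fast fibres, Atp2a1 the pump that returns calcium to its store, and Pvalb the calcium buffer parvalbumin. All are known as products of muscle fibres, and parvalbumin is made by some neurons too.

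The 3 myosin genes lie next to each other on mouse chromosome 11. For each, the bases just upstream of the start site are shown as RefSeq gives them for the GRCm38.p6 assembly, 5′ to 3′ on the plus strand. Capitals mark motifs found in the 120 bases shown, searched on both strands. In the Myh4 sequence they are, from left to right, a CArG box at −104 to −95, an E-box (CANNTG) at −67 to −62 and a TATA box (TATAAA) at −31 to −26, and in the Myh1 sequence a TATA box at −32 to −27, counted back from the start site.
Myh2, chr11:67170907-67171026: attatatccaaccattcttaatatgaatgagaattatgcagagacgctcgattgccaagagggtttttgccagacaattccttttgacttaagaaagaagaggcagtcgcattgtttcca
Myh1, chr11:67199982-67200101: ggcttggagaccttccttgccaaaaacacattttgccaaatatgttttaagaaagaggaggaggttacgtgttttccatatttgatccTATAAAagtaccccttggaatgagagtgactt
Myh4, chr11:67237692-67237811: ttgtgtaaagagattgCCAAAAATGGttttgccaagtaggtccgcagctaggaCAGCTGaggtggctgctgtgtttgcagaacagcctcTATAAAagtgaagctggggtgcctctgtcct

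Sequence was given for 7 of the 10 genes, in 8 windows, and was searched over 250 upstream bases. Of these windows 5 held an E-box, 2 the TATA box, 3 a MEF2 site, 1 a CArG box and 0 a MEF3 site, against 66.2%, 12.4%, 2.92%, 1.47% and 0.387% of 32851 windows of the same length. The Myh2 window held none of the 5. These matches describe the letters only.

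On each array the sample carried Cy5, and a commercial reference RNA pooled from mouse cell lines carried Cy3. Values are given in 2 ways. The log ratio is log2 of Cy5 over Cy3 as deposited, and the Cy5 level is log2 of the processed Cy5 signal minus the 75th percentile of that array over the probes above background on all arrays. A value on either scale compares arrays for one probe and not one gene with another. Between 12493 and 21461 of 55681 probes were well above background in Cy5 on an array (22.4% to 38.5%), the arrays lay on 3 slides, and their number limits the precision of every value. Of the 13 probes, 11 were well above background on all 15 arrays. The exceptions were both Mylpf probes, of which 1 was above background on 3 FLT-Sham arrays and 1 G-Sham array and the other on 0 of 15, so Mylpf is given with little weight. No member spot was saturated.

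Myh2, the heavy chain of type 2A fibres, was low in every FLT-Surgery sample. Its Cy5 level was −0.08, 1.87, 1.19 and 3.29 in G-Sham (replicates 1, 3, 4 and 5) and 3.40, 4.04, 0.38 and 3.91 in FLT-Sham (replicates 4, 6, 8 and 9). It was −0.13, 3.97, 2.86 and 1.11 in G-Surgery (replicates 1, 3, 4 and 5) and −1.80, −5.20 and −2.77 in FLT-Surgery (replicates 1, 3 and 5). All 3 FLT-Surgery samples lay below the lowest of the other 12. The means were 1.57 ± 1.41 (SD, n = 4), 2.93 ± 1.72 (n = 4), 1.95 ± 1.82 (n = 4) and −3.26 ± 1.75 (n = 3) over the groups in that order. On the log ratio the means were 11.54 in G-Sham, 11.22 in FLT-Sham, 11.78 ± 1.27 in G-Surgery and 6.30 ± 2.19 in FLT-Surgery, and the FLT-Surgery samples at 8.77, 4.57 and 5.57 again lay below the lowest of the others, at 10.06. The reference was well above background for Myh2 on only 4 of 15 arrays, 3 of FLT-Sham and 1 of G-Surgery, so the size of this ratio rests on a faint denominator, while the Cy5 signal was above background on all 15.

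Myh1, the heavy chain of type 2X fibres, had Cy5 levels of 3.23 to 4.38 in G-Sham, 3.30 to 5.22 in FLT-Sham and 2.45 to 4.68 in G-Surgery. In FLT-Surgery they were 3.47, −0.66 and 2.56, so the groups overlapped. Myh4, the heavy chain of type 2B fibres, had Cy5 levels of 4.01, 6.30, 6.36 and 7.66 in G-Sham and 7.84, 7.53, 4.99 and 7.10 in FLT-Sham. They were 3.97, 5.82, 5.47 and 6.34 in G-Surgery and 6.42, 2.64 and 0.18 in FLT-Surgery. FLT-Surgery replicate 1 thus carried as much Myh4 signal as the highest G-Surgery sample, while replicates 3 and 5 lay below every sample of the other groups. The log ratio of Myh4 showed no such spread. Its means were 11.27 ± 0.46, 10.44 ± 1.03, 11.65 ± 0.14 and 11.18 ± 0.68 over the groups in that order, with the FLT-Surgery samples between 10.40 and 11.64.

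**Figure D1:**
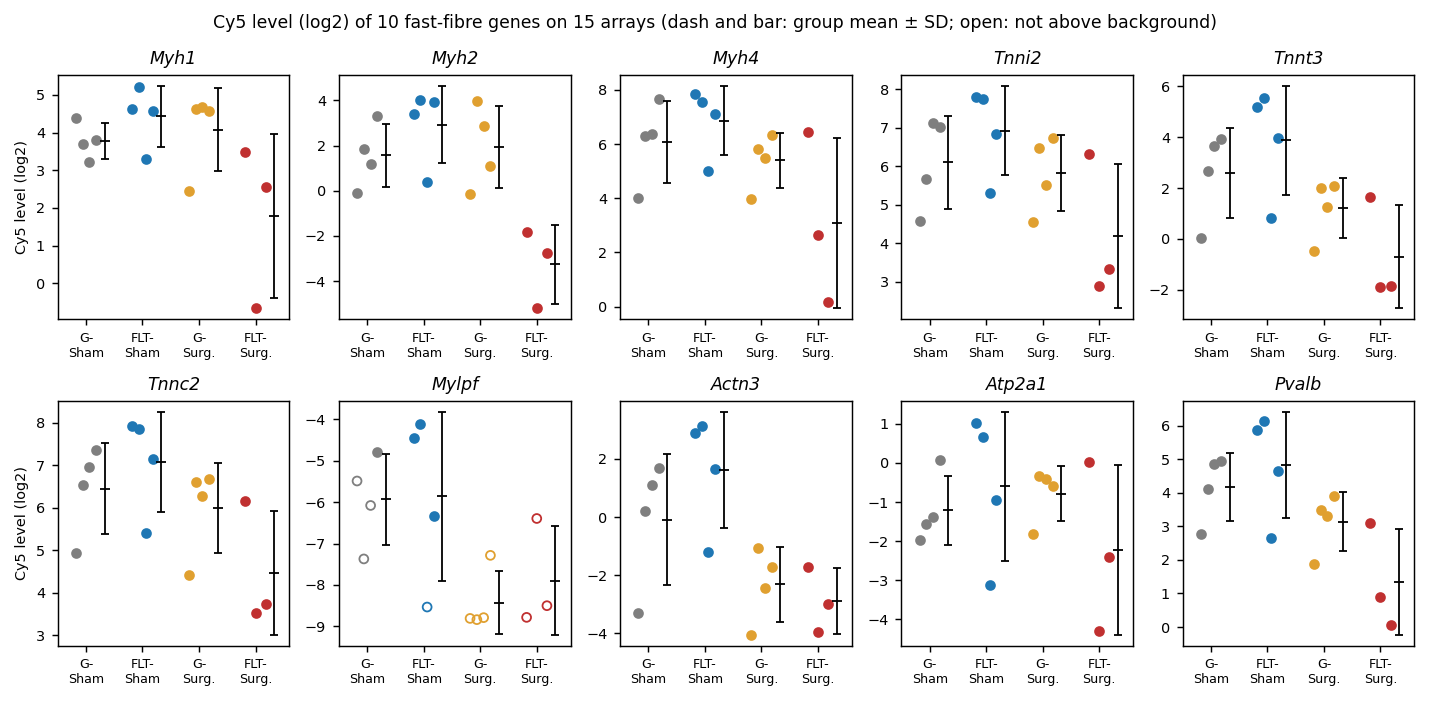
Cy5 level of each member gene on each of the 15 arrays, by group, at its brightest tested probe. The vertical axis is the log2 processed Cy5 signal relative to the array's 75th percentile, points are arrays (open where not above background), and the dash and bar are the group mean ± SD. Myh2 is the gene whose 3 FLT-Surgery samples (−5.20 to −1.80) all lie below the 12 other samples.

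Among the troponins Tnnt3, which binds the complex to tropomyosin, had the widest spread. Its Cy5 level was 0.05, 2.67, 3.65 and 3.94 in G-Sham and 5.19, 5.53, 0.81 and 3.98 in FLT-Sham. It was −0.48, 2.01, 1.26 and 2.06 in G-Surgery and 1.66, −1.88 and −1.85 in FLT-Surgery, where again replicate 1 lay within the ground range and the other samples below it. Tnni2, the inhibitory subunit, had a Cy5 level of 6.32, 2.89 and 3.34 in FLT-Surgery against 4.56 to 6.75 in G-Surgery. Tnnc2, the calcium-binding subunit, had 6.15, 3.53 and 3.73 against 4.41 to 6.67. For both, replicates 3 and 5 were under the lowest G-Surgery sample and replicate 1 was not.

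Actn3 had a lower mean Cy5 level in both operated groups than in the shams. Its Cy5 level was −3.32, 0.19, 1.11 and 1.68 in G-Sham and 2.89, 3.14, −1.21 and 1.65 in FLT-Sham. It was −4.04, −1.05, −2.43 and −1.72 in G-Surgery and −1.72, −3.97 and −2.99 in FLT-Surgery. The FLT-Surgery samples lay under all FLT-Sham samples but overlapped G-Sham. The G-Surgery samples overlapped both sham groups, and the operated groups overlapped each other. Pvalb had Cy5 levels of 2.76 to 4.94 in G-Sham, 2.67 to 6.13 in FLT-Sham, 1.88 to 3.90 in G-Surgery and 0.89 and 0.06 in FLT-Surgery replicates 3 and 5, with replicate 1 within the G-Surgery range. Atp2a1 ranged from −1.98 to 0.07 in G-Sham, −3.13 to 1.03 in FLT-Sham, −1.81 to −0.33 in G-Surgery and −4.29 to 0.03 in FLT-Surgery, and its groups overlapped in every pair. Mylpf was not well above background in any operated sample.

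The order of the group means on the Cy5 level was alike across genes. FLT-Sham was highest for all 10 genes, and FLT-Surgery was lowest for 9, Mylpf being the exception. Neighbours in these orders overlapped in their samples for every gene except Myh2, for which FLT-Surgery stood apart from all 3 other groups. Within a group the samples moved together: the mean Cy5 level of the 9 genes other than Mylpf was 1.70, 3.28, 3.68 and 4.42 in G-Sham, 5.18, 5.32, 2.06 and 4.32 in FLT-Sham, 1.20, 3.51, 2.95 and 3.23 in G-Surgery and 2.63, −0.67 and −0.02 in FLT-Surgery. G-Sham replicate 1, FLT-Sham replicate 8 and G-Surgery replicate 1 were the lowest of their groups in nearly all of these genes.

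**Figure D2:**
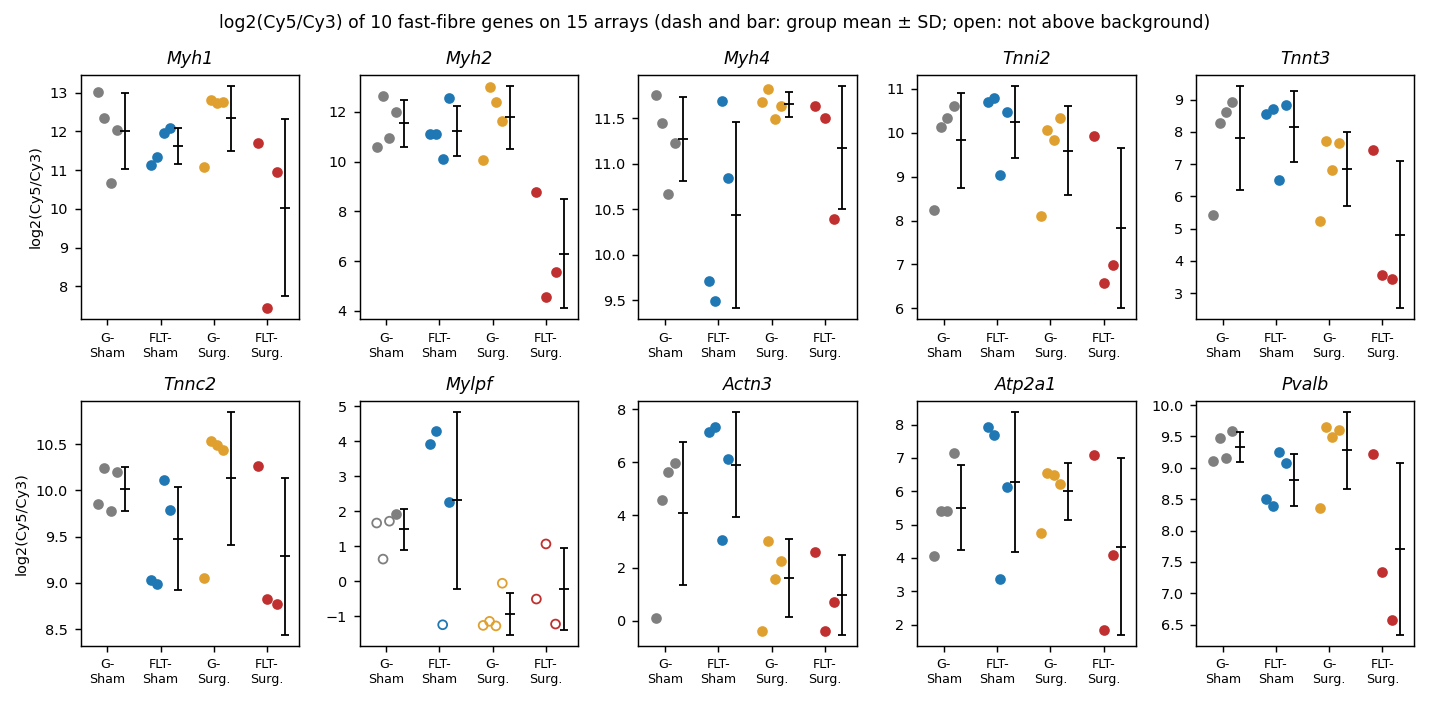
Log2 ratio of Cy5 to Cy3 of each member gene on each of the 15 arrays, by group, at the same probes. Points are arrays (open where Cy5 was not above background), and the dash and bar are the group mean ± SD. Myh4 stays between 9.49 and 11.82 in all groups, while Myh2 lies between 4.57 and 8.77 in the 3 FLT-Surgery samples.

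The first comparison set FLT-Surgery against G-Surgery and asks how spaceflight bears on the injured femur. All 9 tested members had a lower mean in FLT-Surgery on both scales, and Myh2 was the 1 member past the cut-off used here, a fold change of at least 2 with an unadjusted p of at most 0.01 (hereafter called). By limma the difference of Myh2 was −5.48 on the log2 ratio scale (standard error 1.08, adjusted p = 0.208) and −5.21 on the Cy5 level (standard error 1.11, adjusted p = 0.203). With 1 member of 9 called, the share is to be read against 2.09% of 16548 probes called lower on the log ratio, 2.65% of 8500 genes at their brightest probe, and 2.87% of probes on the Cy5 level. In a bulk sample, fewer muscle fibres and less RNA per fibre cannot be told apart. After Benjamini-Hochberg adjustment over all probes, 0 members passed 0.05 by limma. On the log ratio 2 members had an unadjusted p under 0.05, beside 2707 of 16548 probes.

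The other 8 members ranged from Myh1 to Myh4 in size. The log2 ratio of Myh1 differed by −2.31 (standard error 1.01, adjusted p = 0.307 by limma), that of Tnnt3 by −2.04 (1.07, adjusted p = 0.358) and that of Tnni2 by −1.76 (0.89, adjusted p = 0.347). It differed by −1.66 for Atp2a1, −1.57 for Pvalb, −0.85 for Tnnc2, −0.64 for Actn3 and −0.48 for Myh4, the last at −2.31 on the Cy5 level. The median over the 9 members was −1.66 on the log ratio and −1.79 on the Cy5 level, beside −0.20 and −0.14 over all probes tested. The groups did not overlap for 1 member, Myh2, on either scale, beside 7.54% of all probes with every FLT-Surgery sample lower on the log ratio and 9.74% on the Cy5 level. Fewer probes were well above background in these libraries: 25.6%, 22.4% and 25.4% in FLT-Surgery replicates 1, 3 and 5, against 25.7% to 37.2% in G-Surgery. Among those probes the median Cy5 signal before dye normalization was 17.8 in replicate 3, the lowest of the 15 arrays, and the Cy5 normalization factors of replicates 3 and 5, 59.5 and 50.9, were the largest of the 15, against 24.8 to 48.0 in G-Surgery. In replicate 1 that median was 36.9, above the 19.9 to 28.4 of G-Surgery, and the factor was 27.5, within the G-Surgery range. The part of signal strength in the difference of Myh2 was not tested.

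FLT-Surgery replicate 1 decided how many members passed. Without it, 5 members were called on the log ratio (Myh2 −6.71, Tnnt3 −3.36, Atp2a1 −3.04, Tnni2 −2.81 and Pvalb −2.33), 4 of them with an adjusted p of at most 0.05, and 7 on the Cy5 level. The share of all probes called in either direction was then 12.6% on the log ratio and 13.3% on the Cy5 level. With any other sample left out, 1 member was called on each scale. On slide 1, which held 2 FLT-Surgery and 3 G-Surgery samples, the log ratio of Myh2 differed by −6.31, and on slide 2, with 1 sample of each, by −4.23. On slide 2 the differences of Tnnt3 and Tnni2 were −0.25 and −0.14, against −3.08 and −2.65 on slide 1.

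**Figure D3:**
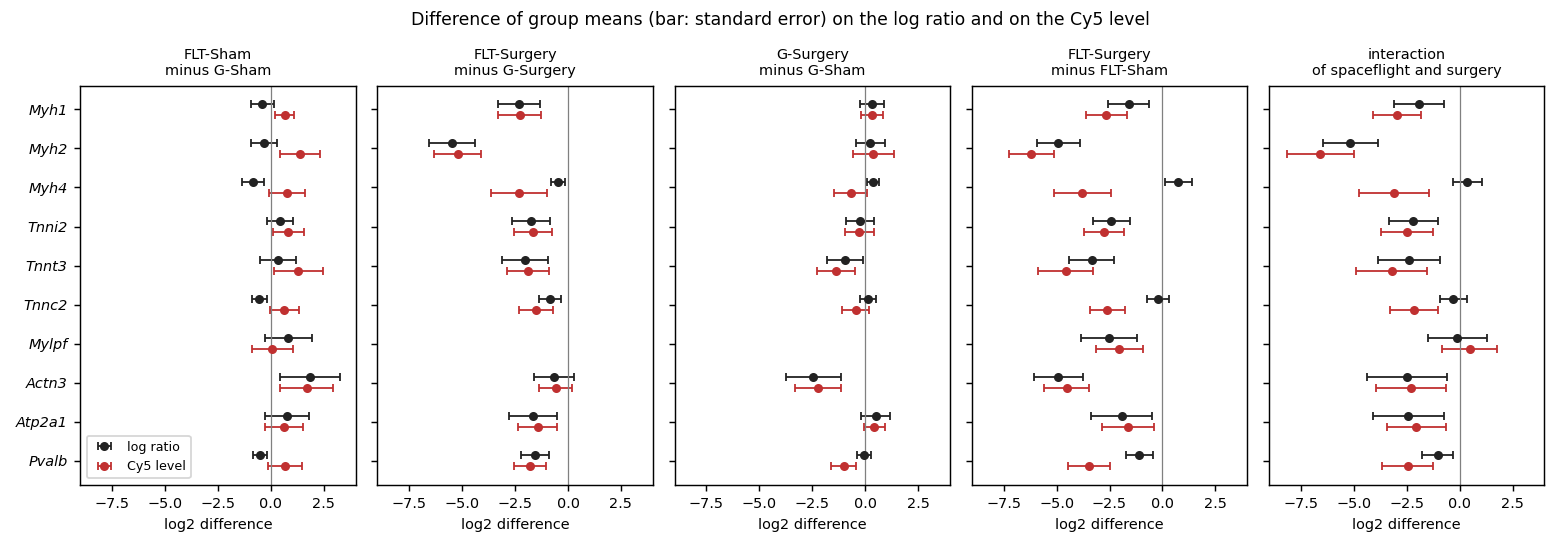
Difference in log2 ratio and in Cy5 level of each member gene in the 4 comparisons and the interaction, with limma's standard error. Points left of 0 are lower in the group named first. In FLT-Surgery against G-Surgery all 9 tested members lie left of 0 on both scales, with Myh2 farthest at −5.48 and −5.21.

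Against FLT-Sham, which asks what the defect did in flight, FLT-Surgery had a lower mean Cy5 level for the 9 members above background in both groups and a lower log ratio for 8 of them, Myh4 being the exception. Mylpf, above background on 0 FLT-Surgery arrays, entered this fit through FLT-Sham alone and is left out of these counts. On the log ratio 2 members were called, both lower, Myh2 at −4.92 (standard error 1.02, adjusted p = 0.130 by limma) and Actn3 at −4.92 (1.15, adjusted p = 0.136), beside 6.22% of all 19136 probes called lower and 7.98% of genes at their brightest probe. On the Cy5 level 4 were called, beside 5.65% of probes. They were Myh2 at −6.19 (standard error 1.08, adjusted p = 0.108), Tnnt3 at −4.57 (1.29, 0.142), Actn3 at −4.51 (1.06, 0.132) and Pvalb at −3.48 (0.99, 0.142). The dimmer probe of Tnnt3 was past the cut-off on both scales, at −5.43 on the log ratio (standard error 1.34, adjusted p = 0.138) and −5.65 on the Cy5 level (1.34, 0.132), so on the log ratio the call of Tnnt3 depended on the probe. None passed an adjusted p of 0.05.

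The scales differed most for Myh4 here. Its log ratio was 0.74 higher in FLT-Surgery (standard error 0.63) and its Cy5 level 3.78 lower, written as −3.78 (standard error 1.36, adjusted p = 0.165). The log ratio differences of Tnnt3 and Tnni2 were −3.34 (adjusted p = 0.156) and −2.42 (adjusted p = 0.170). The median of the 9 members was −1.93 on the log ratio and −3.48 on the Cy5 level, beside −0.25 and −0.05 over the 8131 genes above background on at least 1 array of each group. At the brightest probes the groups did not overlap for 2 members, Myh2 and Actn3, on either scale, and at the dimmer probe of Tnnt3 they did not overlap on the Cy5 level, beside 10.6% of probes with every FLT-Surgery sample lower on the log ratio and 9.71% on the Cy5 level. The count called moved with the samples, and the range of all probes called over the fits with 1 sample left out is given further below. Without FLT-Surgery replicate 3 or replicate 5, 1 member was called on either scale, Myh2, and without FLT-Surgery replicate 1, 5 on the log ratio and 8 on the Cy5 level, where 12.9% and 14.3% of all probes were called. Without FLT-Sham replicate 4, 6 or 9 it was 2 on either scale, Myh2 and Actn3. Without FLT-Sham replicate 8, and with Mylpf left out, more members were called on each scale than with every sample kept. In those fits 25.6% of all probes were called on the log ratio and 28.6% on the Cy5 level.

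Between FLT-Sham and G-Sham, which asks what spaceflight did to the intact femur, 0 of 10 members were called by limma on either scale, and 0 had an unadjusted p under 0.05, beside 2.0% of 19739 probes called in either direction on the log ratio and 2.04% on the Cy5 level. On the log ratio 5 members were higher in FLT-Sham and 5 lower, between −0.84 for Myh4 and 1.83 for Actn3, with a median of 0.01 beside 0.24 over all probes. On the Cy5 level all 10 were higher, with a median of 0.73 beside 0.03. Direction depended on the scale for all 5 members that were lower on the log ratio: Myh4 (−0.84 and 0.79), Tnnc2 (−0.54 and 0.64), Pvalb (−0.53 and 0.67), Myh1 (−0.39 and 0.66) and Myh2 (−0.32 and 1.36). Actn3 was higher on both, by 1.83 (standard error 1.42, adjusted p = 0.561) and 1.70. The spread within each group was of the size of these differences: the Cy5 level of Actn3 alone ran from −3.32 to 1.68 in G-Sham. Without FLT-Sham replicate 8, Mylpf alone was called on the log ratio, in a fit where 10.5% of all probes were called. It was above background in only 1 of 4 G-Sham samples. On the Cy5 level 0 members were called by limma in that fit, where 13.6% of all probes were called. There 5 members had an unadjusted p under 0.05, beside 7947 of 19739 probes.

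Between G-Surgery and G-Sham, which asks what the defect did on the ground, 0 of 9 members were called by limma, beside 2.59% of 17675 probes in either direction on the log ratio and 3.43% on the Cy5 level. Differences on the log ratio ran from −2.45 for Actn3 (standard error 1.30, adjusted p = 0.516) to 0.49 for Atp2a1, with 5 members higher and 4 lower in G-Surgery. On the Cy5 level 3 were higher and 6 lower, with Actn3 at −2.23 (standard error 1.08, adjusted p = 0.462). The median member stood at 0.11 on the log ratio, beside 0.14 over all probes. Without G-Sham replicate 1, the lowest of its group for Actn3, that gene was called at −3.76 (adjusted p = 0.157 by limma). In that fit 4.21% of all probes were called on the log ratio. On the Cy5 level Tnnt3 was called too, at −2.20, with Actn3 at −3.30, beside 3.43% of probes with every sample kept.

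The effect of spaceflight was then compared between operated and unoperated mice in a fit over all 15 arrays. The difference was −5.16 for Myh2 on the log ratio (standard error 1.29, adjusted p = 0.171 by limma) and −6.57 on the Cy5 level (1.57, adjusted p = 0.146). Myh2 was the 1 member called on each scale, beside 4.97% of 21777 probes called lower on the log ratio and 5.24% on the Cy5 level. Myh1, the next on the Cy5 level by p, had −2.95 (standard error 1.13, adjusted p = 0.181). Without FLT-Surgery replicate 1 the count was 3 on the log ratio and 4 on the Cy5 level, with 10.3% and 10.4% of all probes called. These comparisons share groups of samples and so are not independent of each other.

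The reference channel of several members moved with the sample channel. Over the 15 arrays, before dye normalization, the Cy5 signal of Myh4 ran from 263 to 98594 and its Cy3 signal from 4.76 to 4957, so that Cy3 was 1.81% to 7.08% of Cy5. The same reference RNA was put on every array. Pearson's r between the channels on the log2 scale was 0.99 for Myh4 (Spearman's rho 0.98), 0.96 for Tnnc2 (0.96), 0.95 for both probes of Pvalb (0.97 and 0.93) and 0.90 for the brighter probe of Tnnt3 (0.88). Each of these had a permutation p of 1e-05 for r, the smallest that 100000 resamples can give, and 2e-05 after adjustment over the 10 probes tested. The Cy3 range was 18.3-fold for Tnnc2 and 32.9-fold for Pvalb, against a median of 2.23-fold over the 8024 probes above background in both channels on all arrays, of which 95% stayed under 3.50-fold.

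For other members the reference varied little. Pearson's r was −0.23 for Actn3 (rho −0.19, permutation p = 0.411, adjusted p = 0.457) and 0.15 for Atp2a1 (rho 0.15, permutation p = 0.604, adjusted p = 0.604), and the Cy3 signal of Actn3 varied 2.52-fold. Between these lay Myh1 with r = 0.77 (rho 0.81, adjusted permutation p = 0.001), the dimmer probe of Tnnt3 with r = 0.77 (rho 0.71, adjusted permutation p = 0.00126) and Tnni2 with r = 0.55 (rho 0.59, adjusted permutation p = 0.0442). Leaving out the 2 samples farthest from the median Cy5 signal gave r = 0.98 for Myh4, 0.97 for Tnnc2, 0.59 for Tnni2 and −0.08 for Actn3, so the relations of Myh4, Tnnc2 and Tnni2 did not rest on those samples. Over the 8024 probes the median r was 0.10. Where the denominator follows the numerator, the log ratio spans less than the Cy5 level does, as it did for Myh4, Tnnc2 and Pvalb. What made the Cy3 signal move was not tested.

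**Figure D4:**
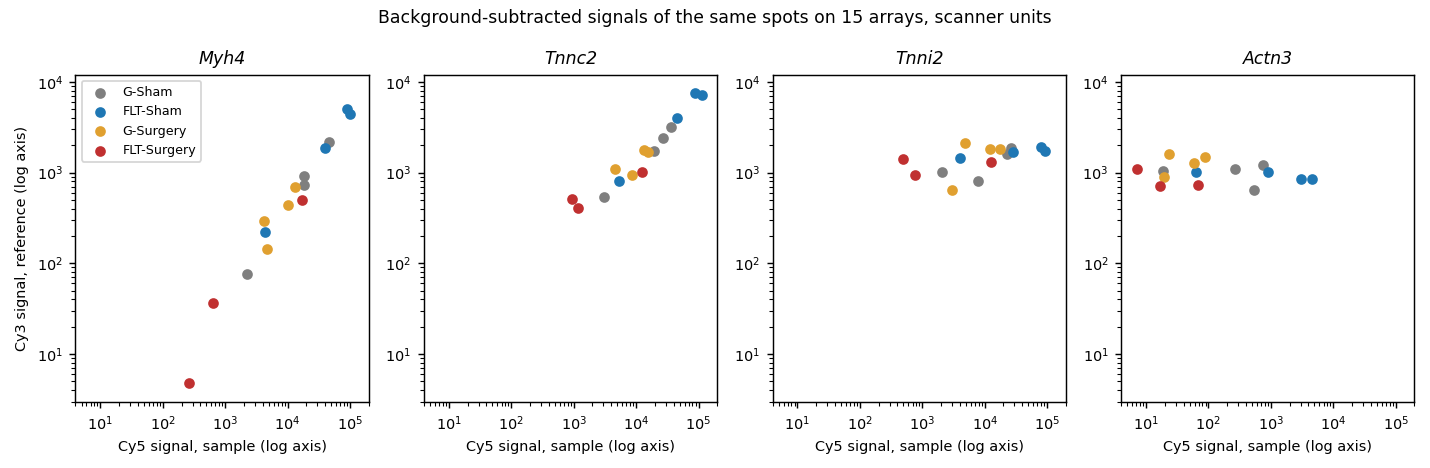
Background-subtracted Cy3 signal (reference) against Cy5 signal (sample) on the 15 arrays for Myh4, Tnnc2, Tnni2 and Actn3, both axes logarithmic, 1 point per array. The points of Myh4 (r = 0.99) and Tnnc2 (r = 0.96) climb together, while those of Actn3 (r = −0.23) stay level in Cy3.

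Across the 15 arrays the members were correlated with each other, which is given as a description of samples that share slides and depth. Over the 36 pairs of the 9 members Pearson's r on the Cy5 level ran from 0.56 (Myh1 and Actn3) to 0.98 (Tnnt3 and Pvalb) with a median of 0.83. On the log ratio it ran from −0.66 (Myh4 and Actn3) to 0.98 (Tnni2 and Tnnt3) with a median of 0.57. Myh2 left the common course in FLT-Surgery. Relative to the mean of the other 8 members, each centred over the arrays, its Cy5 level stood at −2.98, −3.09 and −1.09 in FLT-Surgery, against −0.79 to 1.54 in the shams and −0.38 to 2.52 in G-Surgery. In replicate 1, in which most members were at the level of the ground samples, Myh2 was thus as far below the others as in replicate 3.

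The genes outside the 10 whose log ratio followed the mean of the members most closely, of 11068 compared over 15 arrays, were Jsrp1 (r = 0.99), Cox8b (0.98), Mb (0.98), Myo18b, Mylk2, Myom2 and Prxl2b (0.96 each), and Phtf2, Tpm1 and Ttn (0.95 each). On the Cy5 level, of 11077, they were Jsrp1, Prr33, Cacna1s, Eno3, Ttn, Phtf2, Rhot2 and Gyg (0.99 each), and Ppm1l and Cav3 (0.98 each). Jsrp1, Cacna1s and Cav3 encode proteins of the membranes that couple excitation to calcium release, Mb myoglobin, and Ttn and Myom2 proteins of the sarcomere.

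Other muscle genes were counted in lists on the log ratio, over the genes above background on at least 1 array of each group compared, since a gene seen in 1 group alone had to differ. Over all such genes the share called lower was 4.58% in FLT-Surgery against FLT-Sham and 1.64% in FLT-Surgery against G-Surgery, with medians of −0.25 and −0.32. In the shams 0.569% were called higher in flight (median 0.29), and 2.2% were called higher and 0.37% lower in G-Surgery against G-Sham (median 0.16). Of 17 further genes of fast or glycolytic fibres 15 could be counted in FLT-Surgery against FLT-Sham. All 15 were lower and 6 were called, Gpd1 (−4.49), Phka1 (−3.80) and Eno3 (−3.00), above background in all 3 FLT-Surgery samples, Pgam2 (−5.45) and Myoz1 (−5.32), above it in 2, and Mybpc2 (−6.11), above it in 1. The list's median was −3.28. Eno3 and Pgam2 encode enzymes of glycolysis in muscle. In FLT-Surgery against G-Surgery all 15 were lower on the log ratio and 13 on the Cy5 level, 0 were called by limma on either scale, and the median log ratio was −1.61. In the shams all 16 were higher in flight with 0 called and a median of 0.99, and in G-Surgery against G-Sham all 15 were lower with 0 called and a median of −0.77.

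Slow-fibre genes were counted likewise. Of 14 tested in FLT-Surgery against FLT-Sham, 7 were above background on no FLT-Surgery array and had no size. Of the other 7, 6 were lower and 5 were called, Tnnt1 (−3.42), Myl3 (−3.71), Myh7, the slow myosin heavy chain (−6.82), Mb (−6.42) and Myl2 (−7.14), with a median of −3.71. In FLT-Surgery against G-Surgery 7 of 9 could be counted, 6 were lower and 3 called, Tnnt1 (−2.72), Myl3 (−3.65) and Myl2 (−6.23), with a median of −3.65. Tnnt1 and Myl3 were above background in all 3 FLT-Surgery samples, Myh7 in 2, and Mb and Myl2 in 1. Tnnt1 is the slow form of the troponin subunit that Tnnt3 gives in fast fibres, and its FLT-Surgery samples overlapped neither G-Surgery nor FLT-Sham. In the shams 12 of 13 were higher in flight and 0 were called (median 1.05), and 5 of 12 were higher and 0 called in G-Surgery against G-Sham (median −0.07).

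Of 20 genes used by both fibre types, 14 were above background in both FLT-Surgery and FLT-Sham. All 14 were lower in FLT-Surgery and 10 were called (median −4.53), among them Acta1, skeletal actin, at −5.43 and Ttn at −4.84, each above background in all 3 FLT-Surgery samples. Against G-Surgery 14 of 18 tested could be counted, all 14 were lower on both scales, and the median was −2.57. By limma 0 of them were called on the log ratio and 1, Klhl41, on the Cy5 level. Cav3, Xirp2 and Smpx were past the cut-off there on the log ratio, but none of them was well above background on an FLT-Surgery array. In the shams 18 of 19 were higher in flight and 0 called (median 1.32), and Actn2 (−4.11, above background in 1 of 4 G-Surgery samples) was the 1 gene of 19 called between G-Surgery and G-Sham (median −0.69). Of 14 genes of developing or regenerating muscle 5 to 7 could be counted in each comparison and 0 were called by limma.

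Of 14 genes listed as regulators of fibre type, Vgll2 was called lower in FLT-Surgery against G-Surgery (−4.80) and against FLT-Sham (−6.14). It was above background in 1 of 3 FLT-Surgery samples, so both sizes rest mostly on signal near background. Mef2a was called higher against G-Surgery, at 1.19, and was above background in all of these samples. Smarcd3 (−4.27, in 1 of 3 FLT-Surgery samples above background) and Ppargc1a (−2.17, in 2 of 3), a coactivator of the oxidative programme, were called lower against FLT-Sham. The list's median was −1.04 against G-Surgery and −2.83 against FLT-Sham over 8 genes each, and 0 of its genes were called by limma in the sham or the ground comparison.

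Genes of other cell types moved in the same samples. On the Cy5 level, summed on the linear scale as multiples of each array's 75th percentile, the 9 members came to 100.4 to 572 in G-Sham, 134 to 837 in FLT-Sham, 71.6 to 336 in G-Surgery and 28.1 to 261 in FLT-Surgery. The sum of 11 erythroid genes was 70.5 to 141, 164 to 270, 19.2 to 125 and 17.1 to 46.1 in the same order, with Klf1 and Epb42 never above background. The sum of 12 osteoblast and osteocyte genes was 22.1 to 40.4, 22.4 to 39.2, 29.5 to 54.7 and 22.0 to 36.1, and Sp7, Dmp1 and Phex, which define these cells, were never above background. The osteoblast sums and the member sums thus each overlapped across all 4 groups. The medians of the osteoblast, erythroid and member sums were all lowest in FLT-Surgery, for the osteoblast sum by little. The erythroid and member medians were highest in FLT-Sham, and the osteoblast median in G-Surgery.

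In FLT-Surgery against G-Surgery, counted in the same way, all 4 erythroid genes were lower with 0 called (median log2 ratio −0.89), as were 7 of 8 neutrophil genes with 0 called (−1.42), all 4 adipocyte genes with 0 called (−1.78) and all 7 tendon and fibrous tissue genes with 0 called (−1.91). All 3 chondrocyte genes were lower (list median −1.41), and Col2a1, above background in 1 of 3 FLT-Surgery samples, was called. Osteoblast genes were lower in 6 of 7 with 0 called (−0.66), and of 4 genes of nerve and the neuromuscular junction 3 were higher (median 0.68). These medians stand beside −0.32 over all genes counted. Against FLT-Sham 2 of 5 erythroid (median −3.25), 4 of 8 neutrophil (−3.44), 2 of 5 adipocyte (−3.43), 1 of 7 osteoblast (−0.35), 1 of 7 tendon (−2.48), 0 of 2 chondrocyte (−0.79) and 0 of 5 nerve genes (0.69) were called lower by limma, beside 4.58% of all genes counted and their median of −0.25. The part of these cell types in the muscle result was not tested.

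**Figure D5:**
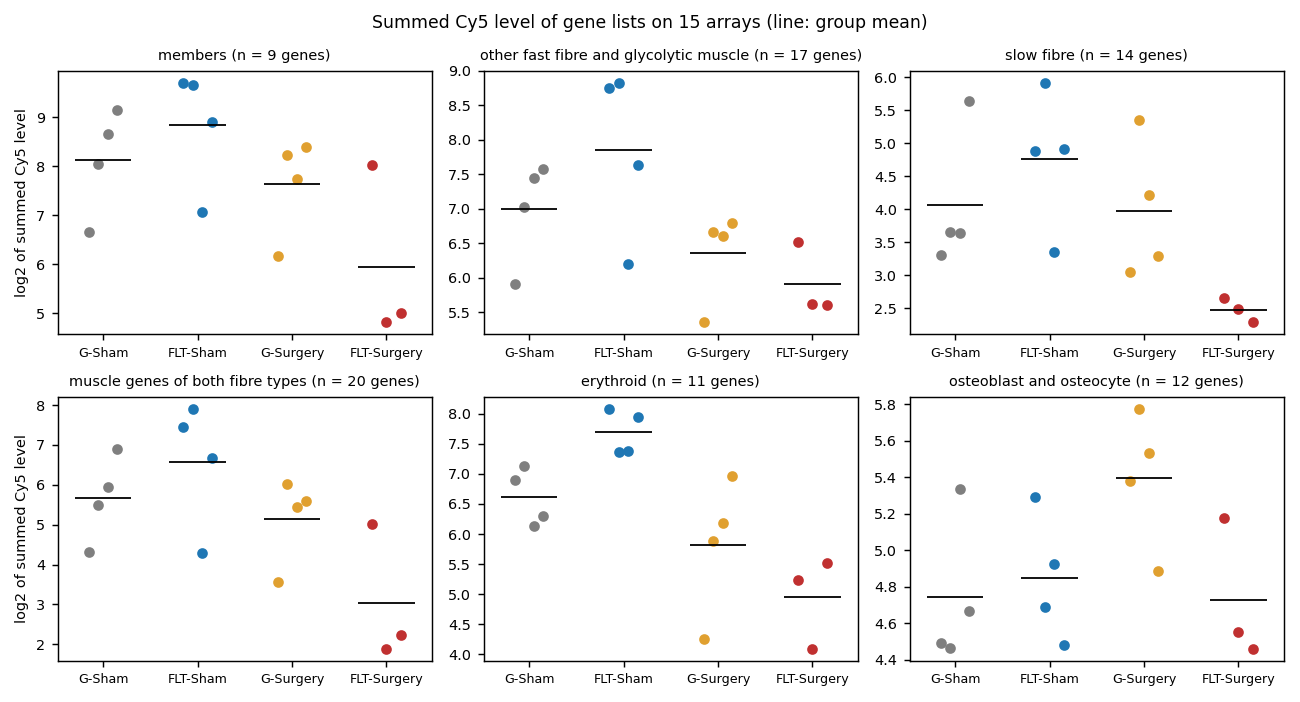
Summed Cy5 level of 6 gene lists on each of the 15 arrays, by group, on a log2 axis. Points are arrays and lines are group means. The group mean of each of the 6 lists is lowest in FLT-Surgery, for the osteoblast genes by little. The 12 osteoblast genes lie between 22.0 and 54.7 on the linear scale in all groups.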

How the data were processed

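RNA of 15 mouse femora was hybridised to 2-colour arrays. The authors deposited Feature Extraction output per array, with background-subtracted and dye-normalized intensity values in Cy5 and Cy3 and the log10 ratio of the processed signals. Per the labels this was Agilent Feature Extraction 12.0, and the methods name a further LOWESS. A deposited series table of log10 ratios held the same values to within 0.005. No p-values or fold changes of the authors were used.

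Deposited log10 ratios were turned to log2, outlier and control spots left out and spots averaged. Of 55681 probes, 28026 had 1 gene symbol through their accession and 27655 none. A probe entered a comparison if its Cy5 signal was marked well above background on 3 or more of the samples, and limma 3.58.1 (R 4.3.3) was fitted to the groups compared, at a fold change of 2 and an unadjusted p of 0.01, the cut-off of the methods, with Benjamini-Hochberg adjustment at 0.05. A gene is given by its brightest tested probe. Lists were counted over genes above background on at least 1 array of each group, a filter chosen after seeing the data. The Cy5 level was added after the data were seen, as an alternative that needs no reference. Each replicate is 1 mouse. The fit was tested on simulated data. The members and lists were chosen with earlier results of these data known. Genes named outside the 10 are those of a list past the cut-off, or among its 3 largest changes, and the 10 most like the members' mean. Results for some genes chosen by this rule are not reported here. Promoter sequences are those of RefSeq, GRCm38.p6, for 7 genes. The array's own build differs, so probe positions are not given. Correlations used 100000 permutations, with Python 3.11.15 and scipy 1.17.1. Alternatives covered normalization, background, filters, weights, slide, replicate number and leaving out each array.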

Additional observations from a re-analysis of the deposited data

Results flagged for a closer look

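In 7 of 60 groups of 4 samples tested, 1 sample stood far from the others, where chance gives about 3 (about 1 in 20). G-Surgery replicate 1 was the low sample for the log ratio of Myh1 (11.08, the others 12.73 to 12.81), Tnnc2 (9.06, the others 10.44 to 10.54) and Pvalb (8.37, the others 9.49 to 9.65), and for the Cy5 level of Myh1 (2.45, the others 4.58 to 4.68). FLT-Sham replicate 8 was low for the log ratio of Tnnt3 (6.51, the others 8.55 to 8.85). G-Surgery replicate 5 was high for Mylpf in log ratio (−0.06, the others −1.28 to −1.15) and Cy5 level (−7.29, the others −8.84 to −8.79), at values that were not well above background in any of the 4 samples.

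The effect of spaceflight on Myh2 differed between operated and unoperated mice, by −5.16 on the log ratio and −6.57 on the Cy5 level (adjusted p = 0.171 and 0.146 by limma), with all 3 FLT-Surgery samples below all 4 G-Surgery samples and the sham groups overlapping.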

How the results depend on the processing

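The call of Myh2 between FLT-Surgery and G-Surgery held under the alternatives that tested it except the replicate block. Over the alternatives that kept all samples its log ratio ran from −4.80 with a further loess to −6.40 with array weights, and with normexp it was −6.06. With 1 sample left out it ran from −4.61 to −6.71. It was not tested where both channels had to be above background. The members called there were 0 with both channels above background, 2 with all 15 arrays in 1 fit and 2 with array weights. With array weights 1704 of 16548 probes were called. The deviations of same-numbered samples from their group means correlated between −0.34 and 0.35 over the pairs of both comparisons with shared numbers, so the numbers give no pairing. With the replicate block, fitted on the samples whose number both groups share, 0 members and 215 probes were called between FLT-Surgery and G-Surgery, and Myh2, at −5.27, lost its call, while G-Surgery against G-Sham had 0 members and 389 probes. Against FLT-Sham, 6 members were called with array weights, in a fit where 8507 of 19136 probes were called. On Cy5 alone scaled by all probes it was 4, the same count as on the Cy5 level. The interaction called 0 members after a further loess (Myh2 −3.96). The cause was not tested.

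With the arrays of FLT-Sham and G-Sham, 394 probes were called on the log ratio, and 254 with a further loess, 36 with normexp, 683 with no filter, 59 with the filter above background on every array, 597 with all 15 arrays in 1 fit, 3858 with array weights and 227 with slide as a block. For FLT-Surgery against G-Surgery 519 became 1230 (further loess), 209 (normexp), 1704 (array weights) and 1290 (slide as a block). Of the 519, 173 were higher and 346 lower, while with a further loess 1171 were higher and 59 lower. The direction of most calls over all probes thus turned with that setting. For G-Surgery against G-Sham 458 became 204 (normexp), 255 (every array) and 210 (slide as a block). For FLT-Surgery against FLT-Sham 1272 became 293 (normexp), 581 (every array), 2593 (all 15 arrays), 8507 (array weights) and 550 (slide as a block).

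Direction turned in the shams for all 5 members with a lower log ratio on Cy5 alone, Tnnc2 (0.71), Myh4 (0.86), Pvalb (0.74), Myh1 (0.73) and Myh2 (1.44), and for Myh2 with normexp (1.22). It turned in FLT-Surgery against G-Surgery for Myh4 (0.40) and Actn3 (0.08) with a further loess and within slide 2 for Atp2a1 (log ratio 0.54) and Myh4 (Cy5 level 0.61), and against FLT-Sham for Myh4 on Cy5 alone (−3.73) and with normexp (−2.47).

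Leaving out 1 sample at a time, the members called were 0 to 1 on the log ratio in the shams, 1 to 5 on the log ratio and 1 to 7 on the Cy5 level for FLT-Surgery against G-Surgery, 0 to 1 and 0 to 2 for G-Surgery against G-Sham, 1 to 5 and 1 to 8 for FLT-Surgery against FLT-Sham, and 1 to 3 and 1 to 4 for the interaction. The probes called were 170 to 2071 and 161 to 2678, 262 to 2080 and 299 to 2205, 255 to 745 and 369 to 800, 413 to 4902 and 433 to 5479, and 541 to 3770 and 643 to 4319 in the same order. Myh2 ran from −0.76 to 0.05 in the shams and Actn3 from −1.45 to 0.03 in FLT-Surgery against G-Surgery. The Cy5 level was chosen after the data were seen. Of the log ratios of single genes under the alternatives other than a left-out sample, 248 kept direction and side of the cut-off, 8 gained and 8 lost the call and 9 turned. Signal limits Mylpf, and Cy3 of Myh2, which were mostly not well above background.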

Other observations

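In both comparisons in which no fast-fibre gene was called, single genes of other cell types were past the cut-off, and are given here as values. Between FLT-Sham and G-Sham, over genes above background on at least 1 array of each group, all 7 adipocyte genes were higher in flight with a median log2 ratio of 2.71, beside 0.29 over all genes. Cidec, which coats lipid droplets, was called (4.23, above background in 1 of 4 G-Sham samples), as was Ibsp, a matrix protein of bone (2.35), beside 0.569% of all genes called higher. On the Cy5 level 0 genes of either list were called by limma. The medians of the erythroid, neutrophil, tendon and chondrocyte lists were 2.21, 1.79, 2.07 and 0.40 on the log ratio, and that of the nerve list 0.13, with 0 genes called in any of them.

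Between G-Surgery and G-Sham, Col3a1 of the tendon and fibrous tissue list was called higher on the log ratio (2.22, median of 6 genes 1.38), as was Ibsp, beside 2.2% of all genes called higher. Col14a1 of the same list and Col2a1, the collagen of cartilage, were well above background in all 4 G-Surgery and 0 of 4 G-Sham samples, so no size is given. All 5 erythroid genes counted were lower (median −0.78) with 0 called by limma on the log ratio and 1, Hba-a1, a globin, on the Cy5 level (−1.97). The bearing of these genes on the muscle genes was not tested.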
